A study of Mus musculus with 18 samples.

Results

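Steady-state nuclear RNA of a mouse embryonic stem cell line labelled Mettl3_KO1 was compared with that of a control labelled Mettl3_Control. The members are 4 of the 18 libraries of the series, 2 of KO1 and 2 of control, taken by their titles, and every gene row of the count table entered. The 2 libraries of a further line, Mettl3_KO2, entered the fit so that all 6 share 1 estimate of the spread, and they are set beside KO1 where the lines differ. The other 12 libraries belong to a Ythdc1 experiment. Those at 0 h gave 1 chromosome share for context, and all 12 entered an alternative fit of all 18 libraries.

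Per the labels, all cells were of strain C57BL/6 and grew in 15% FBS with 1000 U/ml LIF, which sustains self-renewal. The medium also held 3 µM CHIR99021, an inhibitor of the kinase GSK3 that activates WNT signalling, and 1 µM PD0325901, an inhibitor of the kinase MEK that blocks ERK signalling. Both groups shared these conditions and an actinomycin D time of 0 h, so no transcription inhibitor acted before collection. The nuclear fraction was isolated, ribosomal RNA was removed and 0.1 µl of ERCC spike-in RNA was added per sample. The labels name the genotypes only as Mettl3_Control, Mettl3_KO1 and Mettl3_KO2. The sources used here do not give how Mettl3 was disrupted, whether a line is 1 clone, or whether the 2 libraries of a group are separate cultures. The p-values therefore measure only the spread between these libraries, which may be technical.

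METTL3 is the catalytic subunit of the nuclear enzyme that writes N6-methyladenosine (m6A) on RNA, acting with METTL14 and with adaptor proteins such as WTAP, VIRMA and RBM15. FTO and ALKBH5 can remove the mark, and reader proteins of the YTH and IGF2BP families bind it, sending RNA to decay, export, splicing or storage. In embryonic stem cells m6A is known to lie on transcripts of pluripotency and developmental regulators and to shorten their lifetime. Nuclear RNA holds unspliced and newly made transcripts beside RNAs that stay in the nucleus, such as many long noncoding RNAs.

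The 6 libraries held between 20444256 and 30989044 reads in genes. Spike-in reads per 1000000 gene reads were 554.5 ± 10.4 (SD, n = 2) in control and 471 ± 7.04 in KO1. Mitochondrial reads made up 1.02% ± 0.0933 of gene reads in control and 1.502% ± 0.00126 in KO1. Reads outside genes made up 40.1% ± 0.379 and 36.5% ± 0.319 of the counted reads. Replicate spread exceeded read sampling: the chi-square statistic divided by its degrees of freedom was 3.25 in control and 3.00 in KO1. The biological coefficient of variation over the 6 libraries was 4.09%.

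Mettl3 RNA (ENSMUSG00000022160.18, mm10 chromosome 14, 52294841 to 52305128, minus strand) stood at 36.6 and 31.9 CPM (counts per 1000000 of the scaled library total) in control and at 32.6 and 31.3 CPM in the libraries labelled KO1. The groups overlapped, and the log2 fold change of -0.10 ± 0.077 (SE) did not pass the test (edgeR adjusted p = 0.316). A count over the whole gene cannot reveal a partial deletion, so this value does not check the genotype, and KO1 below means the libraries labelled so. In the libraries labelled KO2, Mettl3 stood at 22.7 and 22.1 CPM.

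Stem cell markers were present in every library, and markers of other cell types ranged widely. Pou5f1, the master regulator OCT4, stood at 252 and 241 CPM in control and 304 and 315 CPM in KO1. Nanog stood at 399 and 392 CPM against 464 and 453 CPM. Gata6, Sox17 and Afp of endoderm and Mixl1 of mesoderm stayed at or below 1.05 CPM in all 6 libraries. T of mesoderm was higher in KO1, as given with the WNT targets. Neural Tubb3 stood at 34.8 and 35.2 CPM in control and 43.3 and 43.6 CPM in KO1. Neural Pax6 went the other way, at 4.92 and 4.89 CPM in control and 1.95 and 1.56 CPM in KO1. The germ cell gene Ddx4 stood at 19.9 and 19.7 CPM in control. Cdx2 of trophoblast was highest in KO2, at 3.81 CPM, and the germ cell gene Sycp3 was highest in control, at 2.20 CPM. Krt7 of trophoblast stood at 2.39 and 1.92 CPM in control and 1.27 and 0.999 CPM in KO1. The feeder and fibroblast collagen gene Col1a1 was present in all groups, at 105 and 101 CPM in control, 96.4 and 96.3 CPM in KO1 and 270.0 and 274 CPM in KO2.

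Of 21802 genes tested, 10040 (46.1%) differed between KO1 and control at an adjusted p below 0.05. Of these 5209 were higher (23.9% of those tested) and 4831 lower (22.2%). These percentages are the background over all genes, noncoding genes and pseudogenes included. Coding genes off chromosome 8 were called higher more often. In 5 equal groups of them, described at the end of the Results, 28.7% to 34.8% were called higher and 19.3% to 23.7% lower. Lists of coding genes are better read against those shares. A change of at least 2-fold was called for 842 higher (3.86%) and 1386 lower genes (6.36%). The median log2 fold change over all tested genes was -0.01. Without the genes of chromosome 8, which stand apart as described below, 9171 of 20649 genes (44.4%) were called, 4783 higher and 4388 lower. Off chromosome 8, 8913 genes were called in both fits, and leaving the chromosome out moved no log2 fold change by more than 0.0254. The scale sets the balance of directions: scaled to spike-in reads, 7585 genes were higher and 2985 lower, and the median over all genes rose from -0.01 to 0.17. Without chromosome 8 that scaling gave 7504 higher and 2413 lower. Directions below hold on the TMM scale, which sets the bulk of genes to no change. Both KO1 libraries stood above both controls for 35.1% of tested genes and below both for 35.3%. In the direct test of KO1 against KO2, 24.5% of tested genes were higher in KO1 and 21.6% lower.

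**Figure D1:**
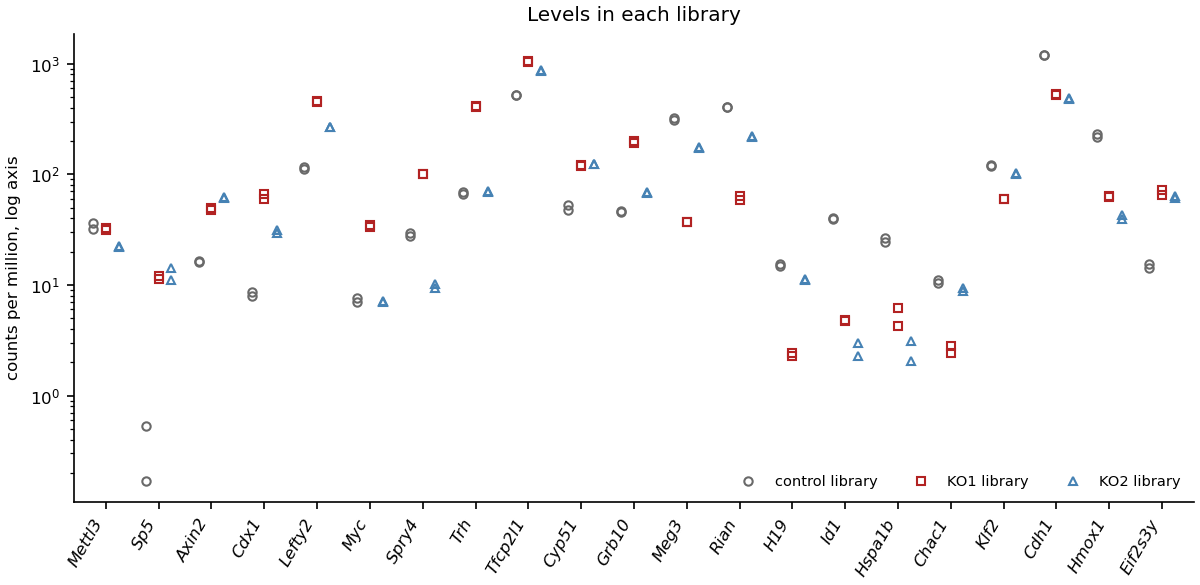
Levels of 21 genes named in the text, in CPM on a log axis, with 1 point per library (circles control, squares KO1, triangles KO2). KO1 and control points lie apart for the genes shown except Mettl3, while KO2 points lie with either group depending on the gene.

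Among the genes with the largest increases off chromosome 8, Nkx1-2, a homeobox factor, rose from 0.191 and 0.255 CPM in control to 6.94 and 6.90 CPM in KO1 (log2 fold change 4.91 ± 0.34, adjusted p = 5.38e-22). Gbx2, a homeobox factor of naive stem cells, rose from 1.96 and 2.89 to 16.4 and 14.8 CPM (2.68 ± 0.17). Trh, which encodes thyrotropin-releasing hormone, rose from 69.1 and 66.9 to 410.4 and 408 CPM (2.59 ± 0.041, adjusted p = 2.39e-63). Both KO1 libraries exceeded both controls in each case. Slc38a5, an amino acid transporter gene (3.27 ± 0.39), Ntrk3, a neurotrophin receptor gene (2.96 ± 0.21), and Bach2, a transcriptional repressor gene (2.97 ± 0.17), rose as well. Tunar, annotated as protein-coding and known from stem cells, rose by 2.70 ± 0.16. Other genes of this rank were Tgm3, a transglutaminase gene (3.21 ± 0.43), Nlrp9c (2.70 ± 0.24) and the Y-linked demethylase gene Kdm5d (3.39 ± 0.27).

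Among the largest decreases off chromosome 8, Chrm1, a muscarinic receptor gene, fell by 3.16 on the log2 scale, from 4.58 and 5.45 CPM to 0.619 and 0.478 CPM. Ttll6, a tubulin glutamylase gene, fell from 52.5 and 51.4 CPM to 9.48 and 9.77 CPM (-2.43 ± 0.088). Traf1, a signalling adaptor gene (-2.41 ± 0.21), Dscaml1, an adhesion gene (-2.40 ± 0.19), Svop (-2.56 ± 0.19), Ssc5d (-2.69 ± 0.27) and the cytokine gene Il17f (-2.33 ± 0.29) fell too. The imprinted genes, Id1 and Hspa1b complete this rank and are described with their groups.

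**Figure D2:**
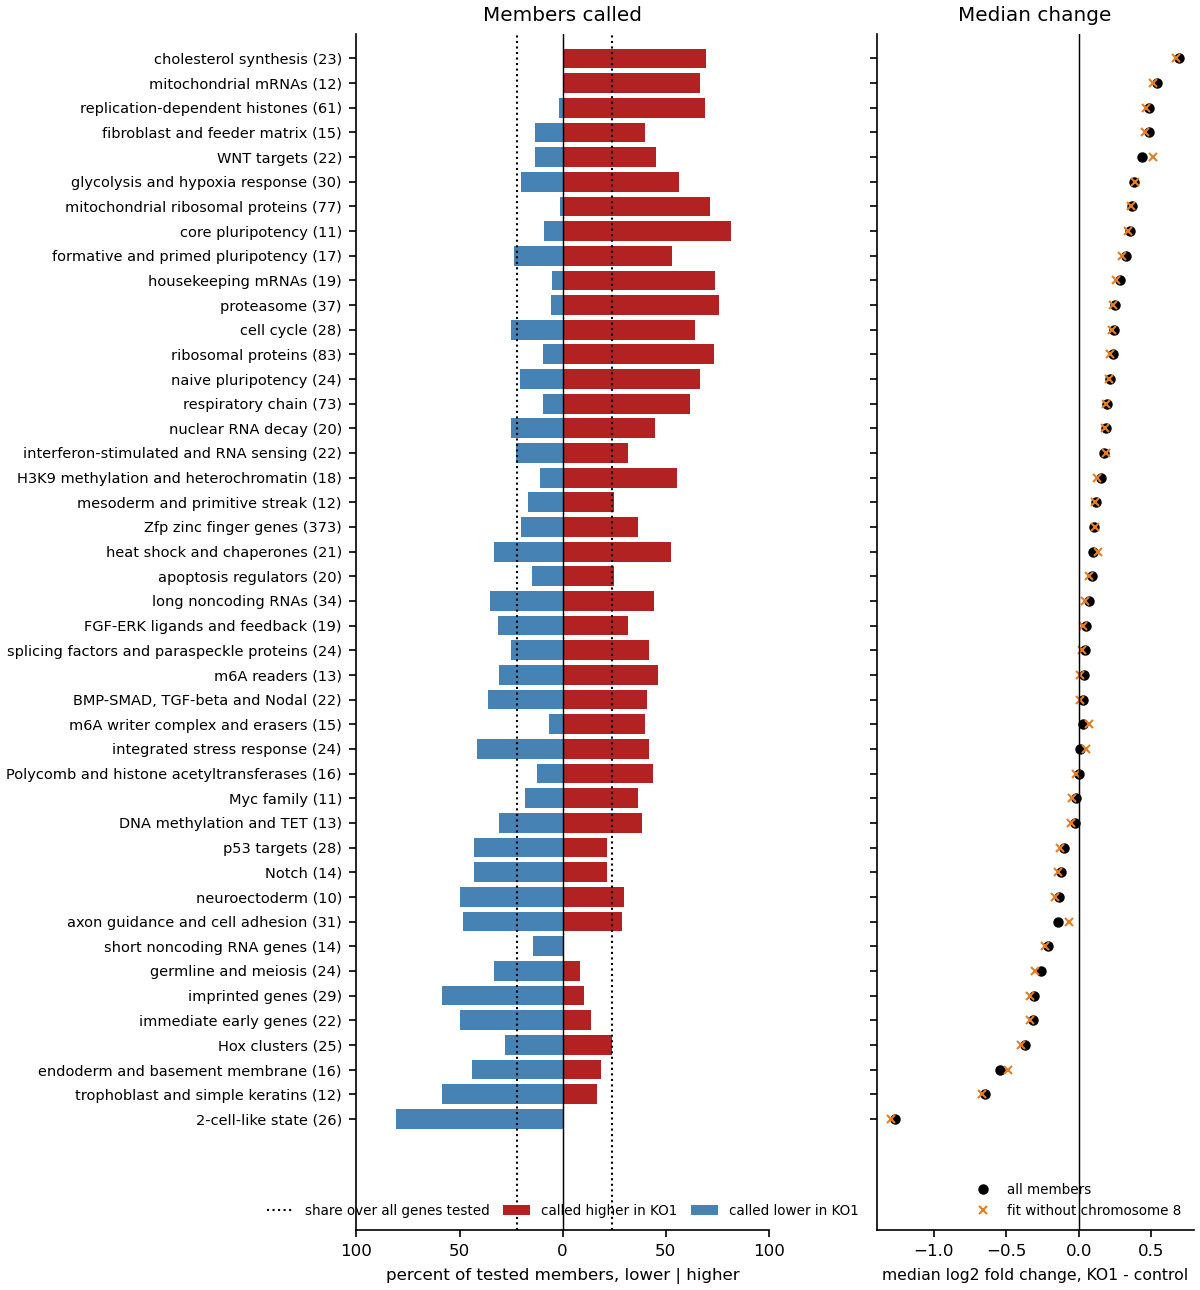
Left, percent of tested members of each gene list called higher (right of 0) and lower (left of 0) in KO1, with dotted lines at 23.9% and 22.2%, the shares over all tested genes. Those shares include noncoding genes, and coding genes alone were called higher more often. Right, median log2 fold change of each list (black) and in the fit without chromosome 8 (orange crosses), running from -1.27 for the 2-cell-like list to 0.69 for cholesterol synthesis.

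The m6A writer and eraser list showed small changes. Of 15 members, 6 were higher and 1 lower, at a median of 0.03 that turned to -0.02 with library size alone and to -0.01 with TMM from coding genes. The adaptor Wtap rose from 149 and 163 to 200.3 and 194 CPM (0.34 ± 0.042, adjusted p = 6.76e-11). Rbm15, which recruits the writer to RNA, rose from 169 and 173 to 225 and 226 CPM (0.40 ± 0.038). Cbll1, which encodes the adaptor HAKAI, rose by 0.55 ± 0.12, Virma by 0.20 ± 0.042, and Mettl16, a separate m6A methyltransferase gene, by 0.47 ± 0.045. Mettl4 was called at 0.23 ± 0.092 (adjusted p = 0.0294), a call lost under 8 of the alternatives tried. Fto, on chromosome 8, fell from 117 and 113 to 87.5 and 93.8 CPM (-0.34). That chromosome had a median of -0.55, and tested relative to it Fto was called higher (0.21). Mettl14 (0.16, adjusted p = 0.0781), Zc3h13 (0.03), Alkbh5 (-0.01) and 5 further members, Mettl3 among them, did not pass. Among 13 readers, 6 were higher and 4 lower, at a median of 0.03 that turned to -0.02 with library size alone. Prrc2a fell from 469 and 450.4 to 283 and 287 CPM (-0.69 ± 0.034), Fmr1, the fragile X gene, fell by 0.49, and Ythdc1, the nuclear reader, fell from 248 and 252 to 197 and 197 CPM (-0.34 ± 0.037). Igf2bp2, whose product stabilises m6A-bearing RNA, rose from 23.5 and 25.7 to 42.4 and 43.8 CPM (0.81 ± 0.068). Of 20 nuclear RNA decay genes 9 were higher and 5 lower. The exosome nuclease Dis3 rose by 0.42 and Exosc9 by 0.50, while Zfc3h1, of the PAXT complex, fell by 0.41. Tent4b, on chromosome 8, fell by 0.40 but was called higher (0.15) relative to that chromosome's median.

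The medium of both groups held the same GSK3 inhibitor, and WNT targets still differed. Of 22 members 10 were higher, 3 lower and 9 not called, at a median of 0.44, and 0.51 without chromosome 8. Sp5, a direct WNT target and feedback repressor, stood at 0.525 and 0.170 CPM in control and at 12.0 and 11.3 CPM in KO1 (5.09 ± 0.26, adjusted p = 1.67e-29). T, the mesoderm factor brachyury, rose from 0.143 and 0.0851 to 2.44 and 2.00 CPM (4.25 ± 0.50), a level close to the limit of these libraries. KO1 and control did not overlap for either gene.

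Axin2, a negative feedback regulator, rose from 16.3 and 16.2 to 49.3 and 47.2 CPM (1.57 ± 0.073, adjusted p = 9.55e-32). Notum, a secreted WNT deacylase gene, rose from 5.44 and 4.81 to 25.3 and 25.7 CPM (2.32 ± 0.11). Cdx1, a caudal homeobox factor, rose from 8.59 and 8.001 to 66.2 and 60.3 CPM (2.93 ± 0.086). The nuclear effector Lef1 rose by 3.21 ± 0.27. Outside the list, Wnt5b, a ligand gene, rose from 2.58 and 2.51 to 22.3 and 21.01 CPM (3.09 ± 0.14). Members added after their values were seen were Tcf7 (0.97) and Wnt3a (1.14), which rose, and Wnt6 (-1.22), Wnt7b (-0.84) and the repressor Tcf7l1 (-0.49), which fell. In KO2, 13 members were higher and 2 lower than control, at a median of 0.92; KO1 and KO2 share their controls. Tested directly, KO1 was higher than KO2 for 3 members and lower for 8.

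TCF and LEF factors bind the letters CTTTGAT, which were searched on both strands in the 250 bases upstream of the gene start (RefSeq, GRCm38.p6). The window is shown for Sp5, the list member with the largest change, with its match in capitals (chr2:70474673-70474922, plus strand).
Sp5: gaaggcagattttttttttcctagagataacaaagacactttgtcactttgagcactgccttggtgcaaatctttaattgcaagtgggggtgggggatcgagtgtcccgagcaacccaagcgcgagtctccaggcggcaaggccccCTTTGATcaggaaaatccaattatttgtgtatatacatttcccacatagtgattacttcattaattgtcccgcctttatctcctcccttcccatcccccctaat
The match begins 104 bases before the start. Of 17 list members with a window, 2 held a match (Sp5 and Tnfrsf19), against 3.72% of 27025 genes. A match describes the sequence and is not evidence of binding.

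Naive pluripotency genes were mostly higher. Of 24 members, 16 were higher and 5 lower, at a median of 0.22. Tfcp2l1, a factor of the naive state, doubled, from 526 and 521 to 1053 and 1043 CPM (1.00 ± 0.029, adjusted p = 1.77e-45). Tdh, the threonine dehydrogenase gene on which mouse stem cells depend, rose from 74.99 and 79.1 to 249 and 243 CPM (1.67 ± 0.043). Nr5a2, a nuclear receptor gene, rose from 116 and 116 to 213 and 212 CPM (0.87 ± 0.041).

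The members that fell were fewer. Klf2, on chromosome 8, fell from 119 and 122 to 60.1 and 59.4 CPM (-1.01 ± 0.049), and Fgf4, the stem cell FGF ligand, fell from 613 and 586 to 407 and 399.6 CPM (-0.57 ± 0.032). Klf4 (0.59), Esrrb (0.46) and Tbx3 (0.45), named after their values were seen, rose. Of 11 core genes 9 were higher and 1 lower, at a median of 0.36: Lin28a, a translation regulator gene, rose from 69.8 and 63.8 to 118 and 112 CPM (0.79 ± 0.053), Tdgf1, the Nodal co-receptor gene, by 0.52 ± 0.030 and Zfp281 by 0.57 ± 0.050. Pou5f1 rose by 0.33. Sall1, on chromosome 8 and named after its values were seen, was the only one lower (-0.46). The median of chromosome 8 was -0.55. On the TMM scale the lines differed here: KO1 exceeded KO2 for 11 of 11 core and 19 of 24 naive members in the direct test. It fell below KO2 for 1 naive member. Over all tested genes the shares were 24.5% higher and 21.6% lower. The list medians of KO1 minus KO2 were 0.48 (core) and 0.51 (naive). With spike-in scaling the median of KO1 minus KO2 over all genes was -0.38, and these members were not counted on that scale.

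Formative and primed markers gave 9 higher and 4 lower of 17, at a median of 0.32. Lefty2, the Nodal antagonist, rose from 111 and 116 to 458 and 455 CPM (2.00 ± 0.037, adjusted p = 5.19e-59). Lefty1 rose from 27.8 and 26.9 to 45.0 and 45.5 CPM (0.73 ± 0.073) and Cdh2, N-cadherin, from 8.11 and 9.28 to 18.02 and 19.5 CPM (1.10 ± 0.11). Otx2 (-0.83) and Pou3f1 (-0.70), primed factors named after their values were seen, fell, and Fgf5 did not reach the filter on low counts.

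Most members of the 2-cell-like list, genes that mark a rare totipotent-like state in stem cell cultures, fell. Of 26 members 21 were called lower, none higher and 5 neither, at a median of -1.27 (-1.30 without chromosome 8). The summed level of the list was 84.1 and 86.6 CPM in control and 31.6 and 34.3 CPM in KO1. Usp17le, a deubiquitinase gene of a repeated family, fell from 10.1 and 11.3 to 2.51 and 2.26 CPM (-2.16 ± 0.18, adjusted p = 4.70e-18). Zscan4d, of the telomere-linked Zscan4 family, fell from 6.97 and 8.64 to 3.49 and 2.69 CPM (-1.32 ± 0.18). Tmem92 fell from 8.02 and 7.96 to 2.18 and 2.87 CPM (-1.68 ± 0.20). Both KO1 libraries were below both controls for these genes. The driver Duxf3, named after its values were seen, was called at -0.89, with 2.34 and 1.36 CPM in control against 0.684 and 1.35 CPM. Zscan4 and Usp17l genes are near-identical copies, so reads could be shared between them and single members are uncertain. In bulk RNA, fewer cells in this state and less RNA per cell cannot be told apart. In KO2, 11 members were lower and 1 higher than control, at a median of -0.52, and KO1 was below KO2 for 12 members in the direct test.

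Lineage lists held members called in both directions. Among 12 trophoblast and keratin genes 7 were lower and 2 higher (median -0.65). Krt19 fell from 11.2 and 9.75 to 2.80 and 2.34 CPM (-2.01 ± 0.19), and Krt8 from 58.9 and 51.2 to 30.3 and 32.5 CPM (-0.81 ± 0.069). Krt18, which pairs with Krt8 in simple epithelia, fell by 0.92. Eomes, shared with the mesoderm list, rose from 7.59 and 8.55 to 19.97 and 20.5 CPM (1.32 ± 0.12). The summed level of this list was 229 and 224 CPM in control and 180 and 179 CPM in KO1.

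Of 16 endoderm and basement membrane genes 7 were lower and 3 higher (median -0.55). In the fit without chromosome 8, 5 were lower and 3 higher (median -0.49). Sparc, a matrix protein gene, fell from 718 and 728 to 467 and 456 CPM (-0.65 ± 0.030). Col4a1 and Col4a2, neighbours on chromosome 8, fell by 0.91 and 0.95. Nid1, nidogen, rose from 469 and 477 to 607 and 630.4 CPM (0.39 ± 0.030).

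Neuroectoderm markers gave 3 higher and 5 lower of 10, at a median of -0.14 that turned to 0.05 with spike-in scaling. The fit without chromosome 8 gave 2 higher and 4 lower (median -0.16). Nes, nestin, fell from 94.0 and 89.4 to 51.4 and 57.7 CPM (-0.75 ± 0.055), and Sox1, on chromosome 8, by 1.65. Olig2 (0.97) and Map2 (1.00) rose. Mesoderm markers gave 3 higher and 2 lower of 12, at a median of 0.12. Without control replicate 1 the median was -0.17, without KO1 replicate 2 it was -0.14, and each of these left 2 higher and none lower. Of 24 germline genes 2 were higher and 8 lower: the piRNA pathway gene Tdrd12 rose from 28.6 and 26.5 to 87.0 and 85.1 CPM (1.65 ± 0.057), while Ddx4, the vasa helicase, fell from 19.9 and 19.7 to 8.70 and 8.47 CPM (-1.20 ± 0.12) and Dazl by 0.98.

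Fibroblast and feeder matrix genes gave 6 higher and 2 lower of 15, at a median of 0.48. Fn1, fibronectin, rose from 2868 and 2932 to 4585 and 4621 CPM (0.67 ± 0.023, adjusted p = 3.48e-40), Vim by 0.56, Acta2 by 0.83 and Lox by 0.64. The summed level of the list was 3359 and 3399 CPM in control and 5127 and 5171 CPM in KO1. Of the defining feeder genes, Col1a1 and Col1a2 were not higher in KO1. Col3a1 stood at 11.9 and 11.5 CPM in control and 11.7 and 13.6 CPM in KO1. Thy1 stood at 2.15 and 1.62 CPM in control and 2.41 and 3.34 CPM in KO1. In KO2, 12 members were higher and none lower, at a median of 1.18. Whether feeder cells contributed was not tested.

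Most members of the imprinted list were called lower. Of 29 tested, 17 were lower and 3 higher (median -0.31). Several of them, Meg3, Rian and Mirg included, are neighbours in 1 domain and not independent. KO2 had 10 higher and 12 lower than the same controls, at a median of -0.04. Meg3, a maternally expressed long noncoding RNA, fell 8.47-fold, from 322 and 309.5 CPM to 37.2 and 37.3 CPM (-3.08 ± 0.044, adjusted p = 3.09e-66). Rian, the snoRNA host next to it, fell from 402 and 409 to 64.1 and 58.5 CPM (-2.72 ± 0.041). Mirg, the microRNA host, fell from 93.1 and 93.7 to 14.8 and 12.9 CPM (-2.75 ± 0.068). Both KO1 libraries lay far below both controls for each of them.

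Genes known as paternally expressed in the same domain were called lower as well. Rtl1, a retrotransposon-derived gene, fell from 103 and 99.2 to 16.9 and 18.9 CPM (-2.50 ± 0.065), and Dlk1, a Notch-like ligand gene, from 4.58 and 4.98 to 0.782 and 0.391 CPM (-2.96 ± 0.31). HTSeq's strand setting is not stated, so reads counted to Rtl1 could come from RNA of the opposite strand, and its value is uncertain. All these genes lie within chr12:109452823-110281097, an interval chosen after the values were seen. Of 118 genes annotated there 54 were tested, and 53 of them were lower, none higher, at a median of -3.06. The exception, Dio3os, was not called (0.66), and Dio3, a deiodinase gene at the far end, fell by 0.71. Of 37 genes tested within 1 Mb to either side 6 were lower and 4 higher, at a median of -0.04. The 54 genes are not independent measurements, since 32 microRNA and 10 snoRNA genes lie among or inside the hosts and Rtl1 lies on the opposite strand. Against the same controls, KO2 had 32 of the 54 lower and 1 higher, at a median of -1.11, and KO1 was below KO2 for 40 in the direct test.

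**Figure D3:**
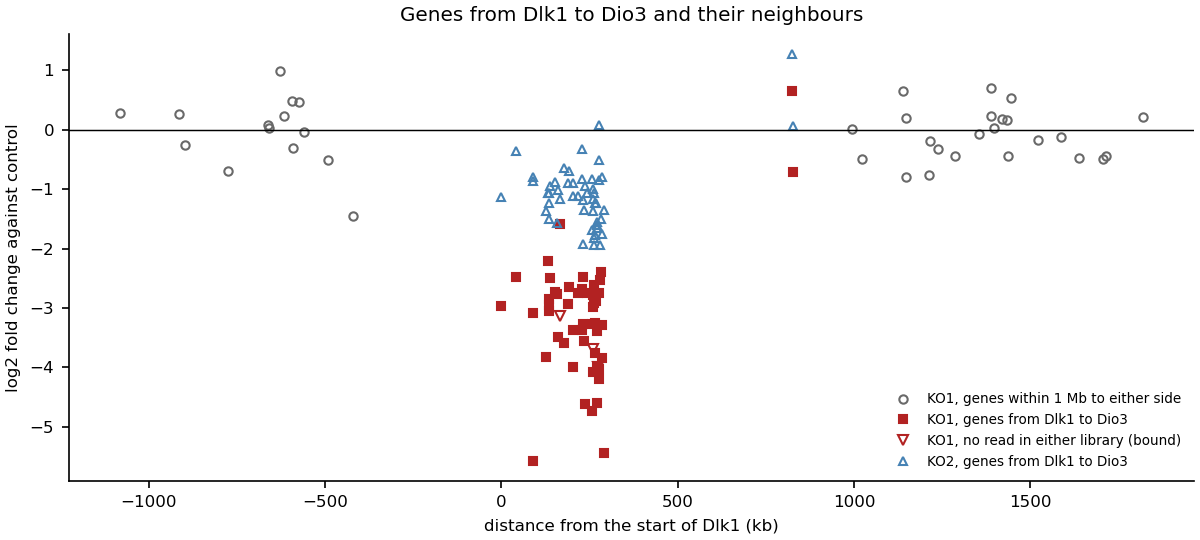
Log2 fold change against control of genes by distance from the start of Dlk1 in kilobases, for KO1 (filled squares), KO2 (open triangles) and KO1 in the 1 Mb to either side (circles). Inverted triangles are lower bounds of the decrease for genes with no read in either KO1 library. Within the interval the KO1 median is -3.06 and the KO2 median -1.11, while the circles scatter around 0.

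Other imprinted genes moved on their own. H19, a maternally expressed long noncoding RNA, fell from 15.3 and 14.8 to 2.44 and 2.30 CPM (-2.66 ± 0.15). Grb10, a growth inhibitor gene, rose from 45.2 and 46.6 to 199 and 193 CPM (2.09 ± 0.049, adjusted p = 1.11e-51). Kcnq1ot1, the antisense RNA that silences its cluster, fell from 954 and 998 to 663 and 664 CPM (-0.56 ± 0.028). Impact (-1.11), Ndn (-1.09) and Mest (-0.94), named after their values were seen, fell.

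BMP, TGF-beta and Nodal genes split. Of 22 members 9 were higher and 8 lower, at a median of 0.03 that turned to -0.02 with library size alone. Id1, a BMP target that inhibits differentiation factors, fell 8.45-fold, from 39.4 and 40.6 to 4.69 and 4.78 CPM (-3.08 ± 0.11, adjusted p = 2.83e-38). Id2 (-1.35), named after its values were seen, fell, Id3 (0.03) was not called and Id4 (1.52) rose. The inhibitory Smad7 rose from 212 and 199 to 342 and 327 CPM (0.71 ± 0.037). FGF and ERK genes gave 6 higher and 6 lower of 19. Spry4, a feedback inhibitor gene, rose from 27.8 and 29.2 to 101 and 99.9 CPM (1.81 ± 0.064) and Spred1 by 0.66, while the receptor Fgfr1, on chromosome 8, fell by 0.90. Fgf17, a ligand gene named for its difference between the lines, rose by 1.55 ± 0.11.

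Notch genes gave 3 higher and 6 lower of 14, at a median of -0.12 that turned to 0.06 with spike-in scaling. Notch4, a receptor gene, rose from 19.6 and 19.7 to 65.7 and 63.9 CPM (1.72 ± 0.071) and the ligand Jag1 from 19.7 and 15.2 to 49.3 and 50.4 CPM (1.52 ± 0.081). The ligand Jag2 fell from 51.6 and 50.6 to 21.7 and 23.4 CPM (-1.18 ± 0.073), and Notch1 by 0.28.

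Myc itself rose 4.65-fold, from 7.02 and 7.66 to 33.5 and 34.9 CPM (2.22 ± 0.11, adjusted p = 5.52e-31), and stood at 7.23 and 7.04 CPM in KO2. Mycl (0.95), Mxi1 (0.85) and Mycn (0.26) rose as well. Of 11 family members 4 were higher, 2 lower and 5 not called, at a median of -0.02 that turned to 0.16 with spike-in scaling. Among 28 cell cycle genes 18 were higher and 7 lower (median 0.24). Cdk6, a G1 kinase gene, rose from 21.3 and 23.1 to 83.7 and 79.8 CPM (1.88 ± 0.063). The D-type cyclin Ccnd1 rose from 15.3 and 12.6 to 39.5 and 45.0 CPM (1.60 ± 0.087), Ccnd2 by 1.49 and Ccne1 by 0.79. Among the lower genes, named after their values were seen, were the pocket proteins Rb1 (-1.05), Rbl1 (-0.63) and Rbl2 (-0.84), the last on chromosome 8.

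In the integrated stress response, 10 of 24 were higher and 10 lower, around a median of 0.00 (-0.05 with library size alone). Chac1, a glutathione-degrading enzyme gene, fell from 10.5 and 11.0 to 2.44 and 2.82 CPM, and the factor Ddit3, known as CHOP, from 24.9 and 26.3 to 9.42 and 10.8 CPM. Their log2 fold changes were -2.04 and -1.35, and Chac1 was added after its values were seen. Slc3a2, an amino acid transporter gene, fell from 522 and 492 to 288 and 279 CPM (-0.84 ± 0.033), and its partner Slc7a5, on chromosome 8, by 0.79. Shmt2, a serine and one-carbon enzyme gene, rose from 124 and 121 to 246 and 237 CPM (0.98 ± 0.040). Asns (0.46) and Psat1 (0.45), biosynthetic genes also added, rose, and Atf4 (-0.08) was not called. On chromosome 8, Herpud1, of endoplasmic reticulum stress, fell by 2.17 and the stress cytokine Gdf15 by 1.93.

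Heat shock genes gave 11 higher and 7 lower of 21 (median 0.10). Hspa1b, the inducible HSP70, fell from 24.6 and 26.3 to 6.22 and 4.25 CPM (-2.26 ± 0.13, adjusted p = 1.61e-24). Its copy Hspa1a, added after its values were seen, fell from 5.20 and 6.04 to 1.66 and 0.955 CPM (-2.07). Reads of the pair could be split between them, so each value is uncertain. Dnajb1, an HSP70 co-chaperone gene, and Calr, calreticulin, both on chromosome 8, fell by 1.33 and 0.78. Hspd1, the mitochondrial chaperonin, rose from 687 and 700.0 to 1067 and 1024 CPM (0.59 ± 0.028).

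Heat shock factor binds inverted repeats of the type GAANNTTC (both strands). The letters occurred in 6 of 17 chaperone genes with a window, in 3 of 9 higher and 3 of 6 lower ones, against 7.73% of all genes. The windows of the HSP70 pair are shown because both genes fell and the sequences match at 247 of 250 bases, with the match in capitals (Hspa1b chr17:34959239-34959488 and Hspa1a chr17:34972157-34972406, minus strand; RefSeq, GRCm38.p6).
Hspa1b: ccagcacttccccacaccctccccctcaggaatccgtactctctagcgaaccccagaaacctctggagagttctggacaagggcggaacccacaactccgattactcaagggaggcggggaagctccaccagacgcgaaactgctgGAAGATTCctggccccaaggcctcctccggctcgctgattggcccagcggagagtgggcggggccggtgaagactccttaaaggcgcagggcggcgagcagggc
Hspa1a: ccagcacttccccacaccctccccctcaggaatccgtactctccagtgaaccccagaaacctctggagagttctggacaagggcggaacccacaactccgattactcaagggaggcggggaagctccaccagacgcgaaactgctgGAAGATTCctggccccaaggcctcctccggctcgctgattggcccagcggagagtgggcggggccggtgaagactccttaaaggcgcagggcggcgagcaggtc
In each the match begins 104 bases before the start.

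Immediate early genes gave 3 higher and 11 lower of 22 (median -0.32). Of the 22, 3 lie on chromosome 8, and the fit without it gave 3 higher and 9 lower (median -0.34). Klf6 fell from 57.6 and 58.9 to 25.3 and 24.8 CPM (-1.22 ± 0.070), Jun, of the AP-1 factor, from 25.2 and 28.4 to 14.5 and 15.5 CPM (-0.84 ± 0.094) and Jund, on chromosome 8, by 1.05. The phosphatase Dusp1 rose from 23.3 and 25.4 to 38.2 and 40.3 CPM (0.69 ± 0.073). In KO2, 10 members were higher and 8 lower, at a median of 0.24. Of 28 p53 targets 12 were lower and 6 higher, at a median of -0.11 that turned to 0.08 with spike-in scaling. The apoptosis effector Perp fell from 33.7 and 31.0 to 14.7 and 13.1 CPM (-1.21 ± 0.094), Ddit4 by 1.19 and Plk3 by 0.96. Among 20 apoptosis regulators 5 were higher and 3 lower: Apaf1, the apoptosome scaffold, fell by 0.67 and Bid rose by 0.32. Hmox1, the heme oxygenase of oxidative stress on chromosome 8, fell from 233 and 218 to 63.9 and 62.6 CPM (-1.84 ± 0.047).

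Most cholesterol synthesis genes rose. Of 23 members 16 were higher and none lower (median 0.69, and 0.67 without chromosome 8). Cyp51, lanosterol demethylase, rose from 47.4 and 52.99 to 121 and 118 CPM (1.25 ± 0.051, adjusted p = 1.62e-35). Sqle, squalene epoxidase, rose from 44.1 and 43.5 to 97.5 and 101 CPM (1.18 ± 0.053), and Fdft1, squalene synthase, from 58.9 and 51.7 to 124 and 134 CPM (1.22 ± 0.052). Msmo1 rose by 0.89 although it lies on chromosome 8. Nsdhl (1.63), Insig1 (1.21) and Hmgcs1 (0.98), added after their values were seen, rose, while the regulator Srebf2 stood at 243 and 235 CPM against 247 and 232 CPM and was not called. In KO2, 19 members were higher and 1 lower (median 0.82).

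SREBP factors act on sterol genes together with NF-Y, which binds CCAAT. On both strands, CCAAT (read as ATTGG on the other strand) occurred in 16 of 16 sterol genes with a window, called or not, against 37.5% of all genes. These counts used all 250 bases, exons included: the match of Cyp51 lies 29 bases upstream, in bases annotated as exon. The SREBP letters CACCCCAC occurred in 1 of 16, Hmgcs1, against 2.98% of all genes. Windows of 3 members that rose are shown with both motifs in capitals: Hmgcs1 (chr13:119690101-119690350), Nsdhl (chrX:72918412-72918520) and Insig1 (chr5:28071162-28071362), all on the plus strand (RefSeq, GRCm38.p6). Bases annotated as exon were left out of the printed windows, so the latter pair spans 109 and 201 bases.
Hmgcs1: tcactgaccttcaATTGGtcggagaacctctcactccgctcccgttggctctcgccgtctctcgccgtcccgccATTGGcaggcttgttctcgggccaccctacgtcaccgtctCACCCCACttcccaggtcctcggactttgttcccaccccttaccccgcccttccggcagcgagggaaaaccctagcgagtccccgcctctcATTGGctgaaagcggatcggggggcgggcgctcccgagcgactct
Nsdhl: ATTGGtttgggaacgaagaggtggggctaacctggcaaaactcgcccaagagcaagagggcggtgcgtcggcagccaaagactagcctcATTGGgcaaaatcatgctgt
Insig1: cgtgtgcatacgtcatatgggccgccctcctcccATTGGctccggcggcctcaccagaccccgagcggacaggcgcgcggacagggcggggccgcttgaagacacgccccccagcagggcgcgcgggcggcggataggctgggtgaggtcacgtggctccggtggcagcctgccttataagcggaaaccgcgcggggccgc
The windows hold 3, 2 and 1 copies of CCAAT.

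Glycolysis and hypoxia genes gave 17 higher and 6 lower of 30 (median 0.38). Tpi1, triose phosphate isomerase, doubled, from 59.3 and 55.9 to 119.8 and 116 CPM (1.03 ± 0.052). Pfkl, a phosphofructokinase gene, rose from 83.8 and 72.4 to 151 and 146 CPM (0.93 ± 0.051), and Eno1, an enolase gene, from 609 and 568 to 893 and 871 CPM (0.58 ± 0.031). Pgk1 and Ldha rose by 0.59 and 0.63. In KO2 the same list had 3 higher and 18 lower on the TMM scale, at a median of -0.33. In the direct test KO1 exceeded KO2 for 22 of 30 and fell below it for 4, against 24.5% and 21.6% of all genes. The list median of KO1 minus KO2 was 0.60. With spike-in scaling the median of KO1 minus KO2 over all genes was -0.38, and these members were not counted on that scale.

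Most genes of protein synthesis and turnover were called higher in KO1. Cytosolic ribosomal protein genes gave 61 higher and 8 lower of 83 (median 0.24), with Rps20 up by 0.63 ± 0.031 and Rpl12 by 0.55 ± 0.029. Rpl10l, a copy of Rpl10 of the male germline, rose from 31.7 and 33.2 to 105 and 108 CPM (1.71 ± 0.057). Mitochondrial ribosomal protein genes gave 55 higher and 1 lower of 77 (median 0.37), among them Mrps24, from 61.0 and 51.4 to 119 and 116 CPM (1.07 ± 0.053). Proteasome genes gave 28 higher and 2 lower of 37 (median 0.25), with Psmd12 up by 0.62. On the TMM scale KO1 exceeded KO2 for 58 cytosolic ribosomal, 56 mitochondrial ribosomal and 29 proteasome members in the direct test. The list medians of KO1 minus KO2 were 0.25, 0.26 and 0.26. With spike-in scaling the median of KO1 minus KO2 over all genes was -0.38, and these members were not counted on that scale. Respiratory chain genes of the nucleus gave 45 higher and 7 lower of 73 (median 0.20): Uqcrfs1 rose by 0.91 and Ndufb4 by 0.77, and Ndufa13, on chromosome 8, fell by 0.73.

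Housekeeping mRNAs moved with them, 14 higher and 1 lower of 19 (median 0.28). Ppia, cyclophilin A, rose from 639 and 670.2 to 1074 and 1096 CPM (0.73 ± 0.029) and Tubb5, a tubulin gene, by 0.70. These mRNAs are mature cytoplasmic species in the main, and whether the purity of the nuclear fraction differed between the groups was not tested. Replication-dependent histone genes gave 42 higher and 1 lower of 61 (median 0.49), with Hist1h1d from 292 and 299 to 453 and 447 CPM (0.61 ± 0.033) and Hist1h4d up by 0.83. Histone copies share sequence, so single members are uncertain. Mitochondrial mRNAs gave 8 higher and none lower of 12 (median 0.54): mt-Nd5 rose from 888 and 964 to 1407 and 1345 CPM (0.57 ± 0.033) and mt-Co1 by 1.12, and KO2 stood above KO1 for 8 of the 12.

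Of the chromatin regulators on 3 lists, Atrx changed most. Atrx, an X-linked remodeller of heterochromatin, rose from 667 and 690.2 to 1621 and 1621 CPM (1.26 ± 0.027, adjusted p = 6.07e-54), and KO2 stood at 1622 and 1598 CPM. Of 18 heterochromatin genes 10 were higher and 2 lower (median 0.15), with Morc3 up by 0.41 and Atf7ip down (-0.29). DNA methylation genes gave 5 higher and 4 lower of 13. Tet1 rose from 1132 and 1177 to 1665 and 1624 CPM (0.51 ± 0.027) and Dnmt3b by 0.42, while Dnmt3l, the cofactor of de novo methylation, fell by 0.35 and Tet3, named after its values were seen, by 0.78. Polycomb and acetyltransferase genes gave 7 higher and 2 lower of 16, with Mtf2 at 0.49 and Rnf2 at 0.57.

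Of 34 long noncoding RNAs 15 were higher and 12 lower (median 0.07). Malat1, of nuclear speckles, fell from 13471 and 13399.5 to 9324 and 9376 CPM (-0.52 ± 0.020). Lncenc1, known from naive stem cells, rose from 133 and 144 to 326 and 349 CPM (1.28 ± 0.039). Among 14 short noncoding genes 2 were lower: Terc, the telomerase RNA, fell by 0.39 and Scarna17 was called at -1.53 (adjusted p = 0.0245). Scarna17 lost the call with DESeq2 (adjusted p = 0.128), without control replicate 1 (0.205) and without KO1 replicate 1 (0.194), and Terc lost it with all 18 libraries in the fit (0.107). Splicing factor genes gave 10 higher and 6 lower of 24, with Nono (0.45), Hnrnpk (0.42) and Srsf10 (0.47) among those that rose. Interferon-stimulated genes gave 7 higher and 5 lower of 22: the RNA sensor Ddx58 rose from 10.1 and 11.0 to 32.0 and 29.7 CPM (1.54 ± 0.100) and Oas1a by 1.36. Adhesion and guidance genes gave 9 higher and 15 lower of 31, at a median of -0.14 that turned to 0.04 with spike-in scaling. Of the 31, 5 lie on chromosome 8, and the fit without it gave 8 higher and 11 lower (median -0.07). Cdh1, E-cadherin, on chromosome 8, fell from 1191 and 1197 to 537 and 518 CPM (-1.18 ± 0.030), and Epha4 fell from 422 and 438 to 194 and 179.7 CPM (-1.20 ± 0.036). Ntn1, netrin, rose by 1.29.

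Hox genes gave 6 higher and 7 lower of 25 at levels of a few CPM, at a median of -0.38 that turned to 0.28 with a filter of 50 reads. The higher ones named by the rule all came from the HoxC cluster: Hoxc13, Hoxc12, Hoxc11 and Hoxc8, at 0.72, 0.82, 1.89 and 1.81. Hotair, transcribed from that cluster and added after its values were seen, rose by 1.98. Hoxb2 had no read in either KO1 library, at least 5.43-fold lower than control against a floor of 3 counts over the group. Control had 12 reads in replicate 1 and 1 in replicate 2, so without replicate 1 no bound can be given.

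Zinc finger genes named Zfp gave 137 higher and 76 lower of 373 (median 0.11). Zfp981 rose from 56.1 and 57.2 to 183 and 194 CPM (1.73 ± 0.045) and Zfp600 from 44.0 and 47.3 to 151 and 149 CPM (1.72 ± 0.049). By chromosome, a split added after the values were seen, 21 of 29 on chromosome 4 were higher, 12 of them by 2-fold or more (median 0.74). On chromosome 13, 19 of 33 were higher and none lower. On chromosome 6 none of 17 was higher and 10 were lower, and on chromosome 8, 1 of 24 was higher and 16 lower. Among all tested genes, the share called higher was 27.4% on chromosome 4 and 30.2% on chromosome 13, where 14.2% were lower. For chromosome 6 the shares were 21.8% higher and 24.96% lower. Chromosome 8 as a whole had 2.86% higher and 60.8% lower, at a median of -0.55. Its Zfp genes had a median of -0.46, so their decrease was no larger than that of the chromosome. Near-identical copies in these clusters make single members uncertain.

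Most genes of chromosome 8 were lower. Of 1153 genes tested there, 701 were lower and 33 higher (63.7% called), with a median log2 fold change of -0.55, or 1.46-fold. Each KO1 library showed it against the mean of the controls, at -0.54 and -0.52. In 7 bins of 20 Mb the median ran from -0.59 to -0.51. The other autosomes had medians from -0.10 (chromosome 6) to 0.11 (chromosome 18). Tested relative to the chromosome's own median, 274 of its genes were higher and 239 lower.

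The share of chromosome 8 among gene reads, with mitochondrial genes left out of the total, sets the groups in context. It was 6.28% ± 0.0137 (SD, n = 2) in control, 4.25% ± 0.00813 in KO1 and 4.53% ± 0.0139 in KO2. In the Ythdc1 control and Ythdc1 cKO libraries at 0 h it was 4.01% ± 0.0349 and 3.87% ± 0.0612. The control libraries of the Mettl3 experiment thus stand apart from the 8 others, and a difference in the control line and a difference in KO1 cannot be told apart from this comparison. In KO2 the chromosome's median was -0.44, with 80 higher and 636 lower, and KO1 was lower than KO2 for 314 of its genes and higher for 194. Its strongest named decreases were Terb1, of meiosis (-2.47), Herpud1, Gdf15, Hmox1 and Cilp2 (-1.80). Its strongest increases were Calb2, calretinin, from 1.29 and 0.298 to 4.24 and 5.17 CPM (2.59 ± 0.33), and Pkd1l2, from 1.38 and 1.83 to 6.97 and 7.16 CPM (2.12 ± 0.20). Cdh11 was called at 0.92, a call lost without control replicate 1.

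**Figure D4:**
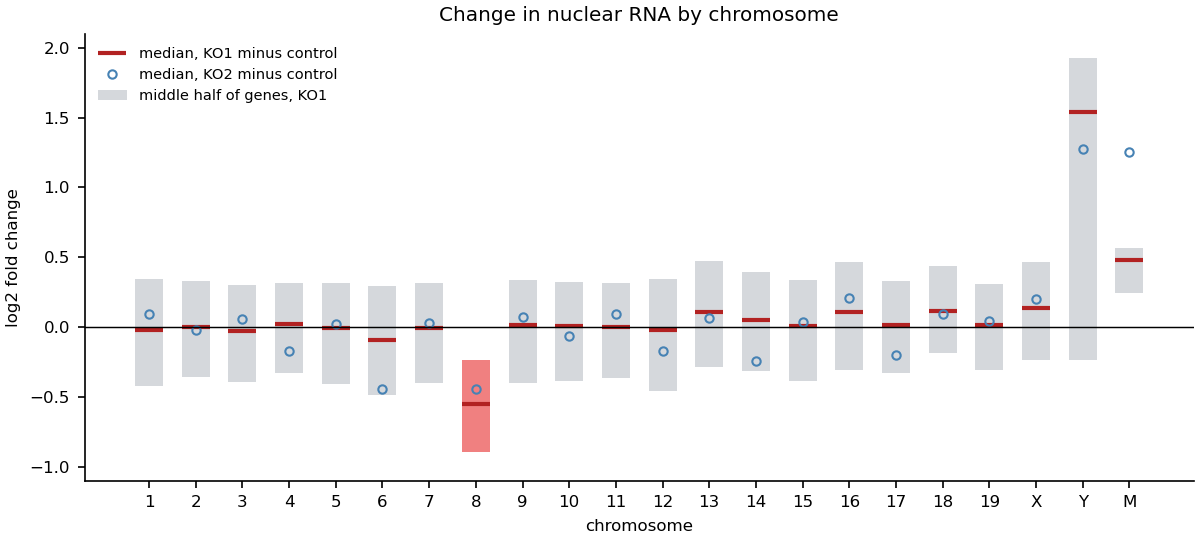
Median log2 fold change of tested genes by chromosome for KO1 (red bars) and KO2 (circles) against control, with boxes (light red on chromosome 8, grey elsewhere) from the lower to the upper quartile of genes in KO1. The KO1 median of chromosome 8 is -0.55, below that of every other chromosome, and Y and the mitochondrial genome (M) lie above 0.

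Sex-linked and mitochondrial genes differed too. Genes on the Y chromosome took 214 ± 7.54 reads per 1000000 gene reads in control (SD, n = 2) and 367 ± 3.51 in KO1. Mitochondrial genes were left out of that total. Of 14 tested 8 were higher and 1 lower (median 1.54). Eif2s3y, a translation factor gene named after its values were seen, rose from 14.1 and 15.4 to 71.5 and 65.4 CPM, and KO2 stood at 61.2 and 63.1 CPM. On the X chromosome the median was 0.14.

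About as many genes differed between KO1 and KO2 as between either line and control. The direct test called 10042 genes (46.1%), 5332 higher and 4710 lower in KO1, and 11079 (50.8%) differed between KO2 and control. With spike-in scaling the direct test called 1663 higher and 10483 lower. Both lines share the 2 control libraries, so their changes are not independent. Sp5 (5.09 in KO1 and 5.21 in KO2), Notum (2.32 and 2.40), Cyp51 (1.25 and 1.29), Atrx (1.26 and 1.25) and Cdk6 (1.88 and 1.89) had like values, with differences between the lines of -0.12 ± 0.13, -0.08 ± 0.088, -0.04 ± 0.047, 0.01 ± 0.027 and -0.01 ± 0.054 that did not pass. Trh (2.59 and 0.04), Myc (2.22 and -0.04), Spry4 (1.81 and -1.55), Grb10 (2.09 and 0.57) and H19 (-2.66 and -0.42) differed between the lines in the direct test. Klk8, a protease gene, stood at 3.77 and 2.13 CPM in control, 12.4 and 11.7 CPM in KO1 and 1.19 and 0.672 CPM in KO2. At the other end, Xlr3a, Xlr3b, Kng2, Dgkk and Magea4 were called against control in KO2 and not in KO1, with KO1 minus KO2 between -3.55 and -3.19 on the log2 scale in the direct test. Over all genes, 1122 (5.15%) were called in opposite directions in the lines, 752 of them higher in KO1.

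**Figure D5:**
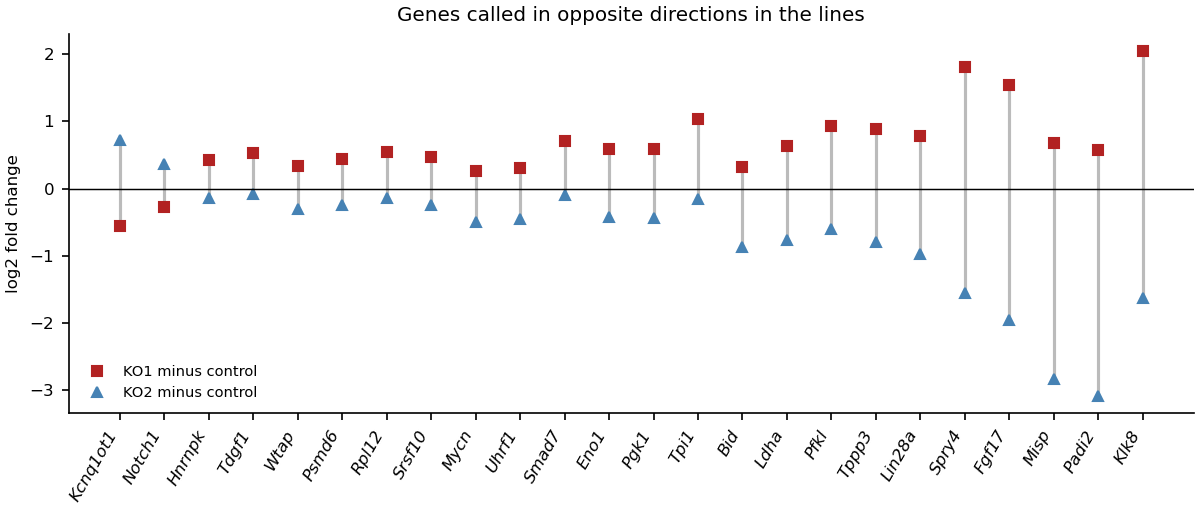
Log2 fold change against control in KO1 (squares) and KO2 (triangles) for 24 named genes called in opposite directions in the lines, ordered by the difference, from Kcnq1ot1 at -1.27 to Klk8 at 3.67. In 22 of them KO1 lies above 0.

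The called genes are described by type and sequence, with no test. Off chromosome 8, 89.0% of the higher, 74.9% of the lower and 59.2% of the uncalled genes were protein-coding. Over all tested genes, chromosome 8 included, the share was 69.8%. Higher coding genes had a median exonic length of 4448 bases and a GC content of 48.1%, and lower ones 4874 bases and 51.3%. GGACT, the DNA form of a sequence that METTL3 favours, occurred in the longest transcript 0.984 times per kilobase in higher and 1.08 times in lower coding genes (median), against 1.04 over all tested. With coding genes in 5 equal groups by GGACT density, the share called higher went from 34.8% in the lowest group to 28.7% in the highest, and the share called lower was 19.3%, 19.8%, 23.7%, 22.4% and 22.03% in turn. Where m6A lies was not measured here. Median level differed too, at 40.4 CPM for higher, 21.3 CPM for lower and 5.59 CPM for uncalled coding genes off chromosome 8. Over all tested coding genes it was 16.8 CPM.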

How the data were processed

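Per the labels, nuclear RNA was depleted of ribosomal RNA, spiked with ERCC RNA and sequenced from a stranded kit. The deposited table holds whole-number counts of reads per gene that the authors made; per the submitters' processing notes, the tools were CASAVA, Trimmomatic 0.38, HISAT2 2.1.0 and HTSeq on mm10. HTSeq's strand setting is not stated, so overlapping and antisense genes are uncertain. All 54446 gene rows stayed; 92 spike-in and 5 summary rows were set aside. The 6 Mettl3 libraries were fitted with edgeR 4.0.16 (R 4.3.3; TMM, filterByExpr with a minimum count of 10, robust quasi-likelihood test), with Benjamini-Hochberg adjusted p below 0.05. CPM are counts per 1000000 of the TMM-scaled library size, and fold changes are log2 KO1 minus control ± SE. The fit left 3 residual degrees of freedom; an exact permutation of 2 against 2 libraries cannot go below p = 0.333. Scripts were tested on simulated data.

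Members and lists were chosen with earlier results of these data known. The text names Mettl3 and the m6A writer list, the 15 highest and 15 lowest called genes off chromosome 8 with a mean of at least 50 counts and no overlap between groups, 5 each way on chromosome 8 and between the lines, and up to 4 called members of each of 44 lists by p. Other genes, markers included, were named after their values were seen. Some genes picked by the rule are not reported here. GENCODE M21 gave positions and transcripts. Alternatives were other scalings, filters, tests, chromosomes and left-out libraries.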

Additional observations from a re-analysis of the deposited data

Results flagged for a closer look

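The genes below were called in opposite directions against the shared controls in KO1 and KO2, and the difference between the lines was itself called by edgeR. They are 24 of the 223 genes named by rule, of which 176 differed between the lines in either direction. KO1 minus KO2 on the log2 scale was positive in 22 of them.

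Among signalling genes, the difference was 3.37 for Spry4, 3.502 for Fgf17, 0.80 for Smad7, 0.61 for Tdgf1 and -0.64 for Notch1. Among glycolytic genes it was 1.01 for Eno1, 1.02 for Pgk1, 1.18 for Tpi1, 1.39 for Ldha and 1.53 for Pfkl. RNA-binding and regulatory genes gave 0.65 for the m6A adaptor Wtap, 0.57 for Hnrnpk, 0.71 for Srsf10, 1.76 for Lin28a, 0.75 for Mycn and 0.75 for Uhrf1. The imprinted RNA Kcnq1ot1 gave -1.27. The ribosomal gene Rpl12 gave 0.68, the proteasome gene Psmd6 0.68 and the apoptosis gene Bid 1.195. Tppp3, on chromosome 8, gave 1.67. Misp, Padi2 and Klk8, picked for their difference between the lines, gave 3.51, 3.66 and 3.67.

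The difference stayed called for all 24 under each of 5 other scalings. The opposite calls against control held for 24 genes with library size alone and for 10 with spike-in scaling.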

How the results depend on the processing

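With edgeR and 20 alternative settings, counts of called genes stayed within 1.5 times the reported ones except as follows. A test against a fold change of 1.2 called 5793 genes, 5133 without chromosome 8 and 5720 between KO1 and KO2. Changes of at least 2-fold numbered 2228, but 1455 with DESeq2's Wald test and 1192 with a filter of 50 reads in 2 libraries. The median of chromosome 8 was -0.535 with DESeq2 size factors, -0.6004 with library size alone, -0.364 with spike-in scaling, -0.586 with TMM from coding genes and -0.573 from genes off the chromosome. It was -0.480 with DESeq2's test, -0.471 with no filter and -0.525 with all 18 libraries in the fit; the cause was not tested. Leaving out each library in turn gave 8396 to 9833 called genes, 2034 to 2192 by 2-fold, 7654 to 8968 without chromosome 8, 8156 to 10438 between the lines, and a chromosome 8 median of -0.559 to -0.528. With 1 library left in a group, it is assumed to vary like the others. Libraries of the same number did not deviate together (correlation -0.034 for control and KO1). That value cannot show whether the numbers mark a shared culture or preparation, which the labels do not give. With the replicate block 9891 genes were called, 9028 without chromosome 8.

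Of 4169 values of named genes under these settings, 4106 kept their direction and call, 30 lost the call, 4 gained it with the same sign and 29 changed sign; the cause was not tested. Of the latter, Rbm15b and Alkbh5 became called with spike-in scaling (adjusted p = 0.00842 and 0.00378). No gene whose sign changed was called in KO1 on the TMM scale. Scaled to spike-ins, Xlr3a (0.0758), Mettl3 (0.0855), Rbm15b (0.16), Zcchc4 (0.13), Mettl5 (0.0327), Pcif1 (0.16) and Alkbh5 (0.17) turned positive. Zc3h13 turned to -0.0233 with library size alone, -0.00850 with TMM from coding genes and -0.00740 with the 50-read filter. With no filter, Rbm15b was at 0.00394, Pcif1 at 0.00489 and Alkbh5 at 0.0200. Alkbh5 was at 0.00296 with DESeq2 size factors, 0.0105 with DESeq2's test and 0.0109 with 18 libraries. Without each library in turn, Xlr3a ran from -0.29 to 0.0531, Kng2 from -0.45 to 0.57, Dgkk from -0.0280 to 0.48, Xlr3b from -0.0195 to 0.44 and Magea4 from -0.92 to 0.63. Mettl3 ran from -0.19 to 0.0084, Rbm15b from -0.0607 to 0.0216, Zcchc4 from -0.10 to 0.0097, Pcif1 from -0.0515 to 0.0136 and Alkbh5 from -0.0532 to 0.0469. Cdh11, Msx1, Mesp2, Scarna17 and mt-Nd6 each lost the call without at least 1 library. Depth limits the genes of a few reads, such as T and the Hox genes.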
